A study of Mus musculus with 12 samples.

Results

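The 10 genes described here carry glucose into the cell and run the rate-setting and final steps of glycolysis in mouse neutrophils. They were chosen by name: the glucose transporters Slc2a1 and Slc2a3, the hexokinases Hk1, Hk2 and Hk3, the phosphofructokinase gene Pfkl, the fructose 2,6-bisphosphate regulators Pfkfb3 and Pfkfb4, the pyruvate kinase gene Pkm and the lactate dehydrogenase gene Ldha. All 10 were found among the 15986 genes of the files, in all 12 libraries, and all 10 were among the 10802 genes that passed the filter on low counts.

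Glucose enters through facilitative transporters of the Slc2a family and is trapped by hexokinases as glucose 6-phosphate. Phosphofructokinase then commits it to glycolysis under control of fructose 2,6-bisphosphate, and pyruvate kinase and lactate dehydrogenase end the path at lactate. Neutrophils have few mitochondria and depend on this path for most of their energy, and several of its genes are known targets of the hypoxia-inducible factor HIF-1.

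Mature neutrophils of C57BL/6 mice had been taken from bone marrow with magnetic beads against the surface protein Ly6G. The 4 groups, of 3 libraries each, were Rab27aKO neutrophils kept for 6 h with 5 µM CpG-B, Rab27aKO neutrophils kept for 6 h without it, wild-type (WT) neutrophils with CpG-B for 6 h and WT neutrophils without it. CpG-B (ODN 1826) is a synthetic DNA that activates the endosomal receptor TLR9, and Rab27a is a small GTPase that docks granules for secretion. The cells without CpG-B are called vehicle in 1 label and untreated in another, and unstimulated here. The labels give neither the mutant allele nor the number of animals, nor whether replicates came from separate animals. The p-values therefore reflect the spread of these libraries alone, which may be technical. The questions that the design addresses are what CpG did in each genotype, how the genotypes differed in each condition, and whether the CpG effect differed by genotype.

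Library totals ran from 10928813 to 15513279 estimated counts. Rab27a stood at 94.9 to 129 CPM (the count scaled to the TMM-adjusted size of its library) in the 6 Rab27aKO libraries and at 207 to 335 CPM in the 6 WT libraries, so the transcript was lower in every library with the KO label (log2 fold changes -1.14 with CpG and -1.26 without it, SE 0.17 each). The 12 markers of mature neutrophils were all detected, and summed to 48690 to 77617 CPM in Rab27aKO libraries and 72695 to 83883 CPM in WT libraries. The lowest of these sums belonged to Rab27aKO library 2 with CpG. Erythroid markers summed to 422 to 6513 CPM in Rab27aKO libraries, lowest in library 1 and highest in library 3 of both conditions, and to 3922 to 5329 CPM in WT libraries. These are libraries from bulk cells, in which fewer cells of a type and less RNA per cell cannot be told apart.

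The DNA before the transcription start is shown for 4 of the genes because 3 of them, Slc2a1, Hk2 and Pfkl, varied most among the WT libraries, and Ldha holds the most copies of the motif searched. Each sequence is the 250 bases before the start in the RefSeq promoter table of build GRCm38.p6, 5′ to 3′ on the gene's strand. Capitals mark ACGTG, a form of the core of the hypoxia response element, or CACGT, its reverse complement. The other form of the core, GCGTG, is not marked.
Slc2a1, chr4:119108495-119108744, plus strand: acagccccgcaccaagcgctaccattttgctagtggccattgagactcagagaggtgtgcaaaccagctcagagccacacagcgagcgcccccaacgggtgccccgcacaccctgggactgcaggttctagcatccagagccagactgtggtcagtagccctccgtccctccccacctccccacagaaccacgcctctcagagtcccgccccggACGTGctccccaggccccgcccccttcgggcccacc
Hk2, chr6:82774455-82774704, minus strand: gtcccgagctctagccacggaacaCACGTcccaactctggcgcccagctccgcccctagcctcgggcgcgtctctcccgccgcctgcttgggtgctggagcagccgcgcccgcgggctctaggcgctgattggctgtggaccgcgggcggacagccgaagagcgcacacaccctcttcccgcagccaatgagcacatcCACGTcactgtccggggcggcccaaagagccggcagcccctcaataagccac
Pfkl, chr10:78009808-78010057, minus strand: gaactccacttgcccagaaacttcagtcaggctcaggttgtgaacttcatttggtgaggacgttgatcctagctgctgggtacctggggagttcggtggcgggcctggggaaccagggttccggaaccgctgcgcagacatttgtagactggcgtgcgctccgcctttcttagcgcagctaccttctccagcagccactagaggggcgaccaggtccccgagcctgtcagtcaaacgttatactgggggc
Ldha, chr7:46845554-46845803, plus strand: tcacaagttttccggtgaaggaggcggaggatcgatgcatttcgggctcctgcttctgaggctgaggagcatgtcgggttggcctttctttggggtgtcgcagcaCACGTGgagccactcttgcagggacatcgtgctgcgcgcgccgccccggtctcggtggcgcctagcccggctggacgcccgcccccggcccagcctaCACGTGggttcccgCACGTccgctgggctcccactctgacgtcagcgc
The Slc2a1 promoter held ACGTG once, starting 36 bases before the transcription start, and the Hk2 promoter held it at 226 and 52 bases before. The Ldha promoter shown held 5 matches in 3 places. In 2 of those places of Ldha the match is the palindrome CACGTG, the E-box, which counts on both strands. The other Ldha promoter of the table, chr7:46846832-46847081, held no ACGTG and is not shown. The Pfkl promoter held no ACGTG on either strand. GCGTG, on either strand, stood once in each of the Slc2a1 and Pfkl promoters shown, and in neither of the Hk2 and Ldha promoters shown. The table matched 9 of the 10 genes, all but Slc2a3, with 13 promoters in all. Of these, 7 promoters of 6 genes held ACGTG on either strand, against 22.0% of the 11170 promoters of tested genes and 16.6% of all 32851 promoters of this length. With GCGTG counted too, 11 of the 13 did, against 55.5% and 38.6%. The E-box CACGTG stood in 2 of the 13 (8.46% of promoters of tested genes) and the NF-kB consensus in none of the 13 (8.91%). These are letter matches, not binding sites.

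Levels between genes were compared per length, in the deposited TPM, which scale each transcript to its length and to a fixed sum in every library. Pkm was the most abundant of the 10, with group means from 3051 TPM in Rab27aKO neutrophils with CpG to 3608 TPM in unstimulated WT neutrophils, and Ldha came next with 1805 to 2072 TPM. Slc2a3, the high-affinity transporter GLUT3, stood at 536 to 855 TPM, and Slc2a1 (GLUT1) at 123 to 197 TPM. Hk3, the hexokinase typical of myeloid cells, led the hexokinases with 202 to 287 TPM. Pfkl, the gene of the liver-type phosphofructokinase subunit, had 140 to 214 TPM. In WT neutrophils the platelet-type gene Pfkp averaged more than Pfkl, at 151 against 140 TPM with CpG and 158 against 149 TPM without it. With only curated transcripts counted Pfkp averaged less there, at 52.3 and 56.4 TPM. Hk2 averaged 119 TPM and Hk1 117 TPM over the 4 groups, and their order differed between groups. Hk1 averaged more than Hk2 in both CpG groups, and Hk2 more than Hk1 in both unstimulated groups. In unstimulated WT library 1, however, Hk1 had 91.2 TPM and Hk2 60.9 TPM. With only curated transcripts counted this order did not hold. Hk2 then averaged more than Hk1 in all 4 groups, at 95.1 to 131 TPM against 43.6 to 54.5 TPM. Pfkfb4 averaged 105 TPM and Pfkfb3, whose enzyme is strongly biased to making fructose 2,6-bisphosphate, was lowest of the 10 with 48.4 TPM. Together the 10 genes made up 6335 to 6980 TPM with CpG and 7182 to 7629 TPM without it in Rab27aKO libraries. In WT libraries the sum was 5753 to 7149 TPM with CpG and 6353 to 8173 TPM without it.

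**Figure D1:**
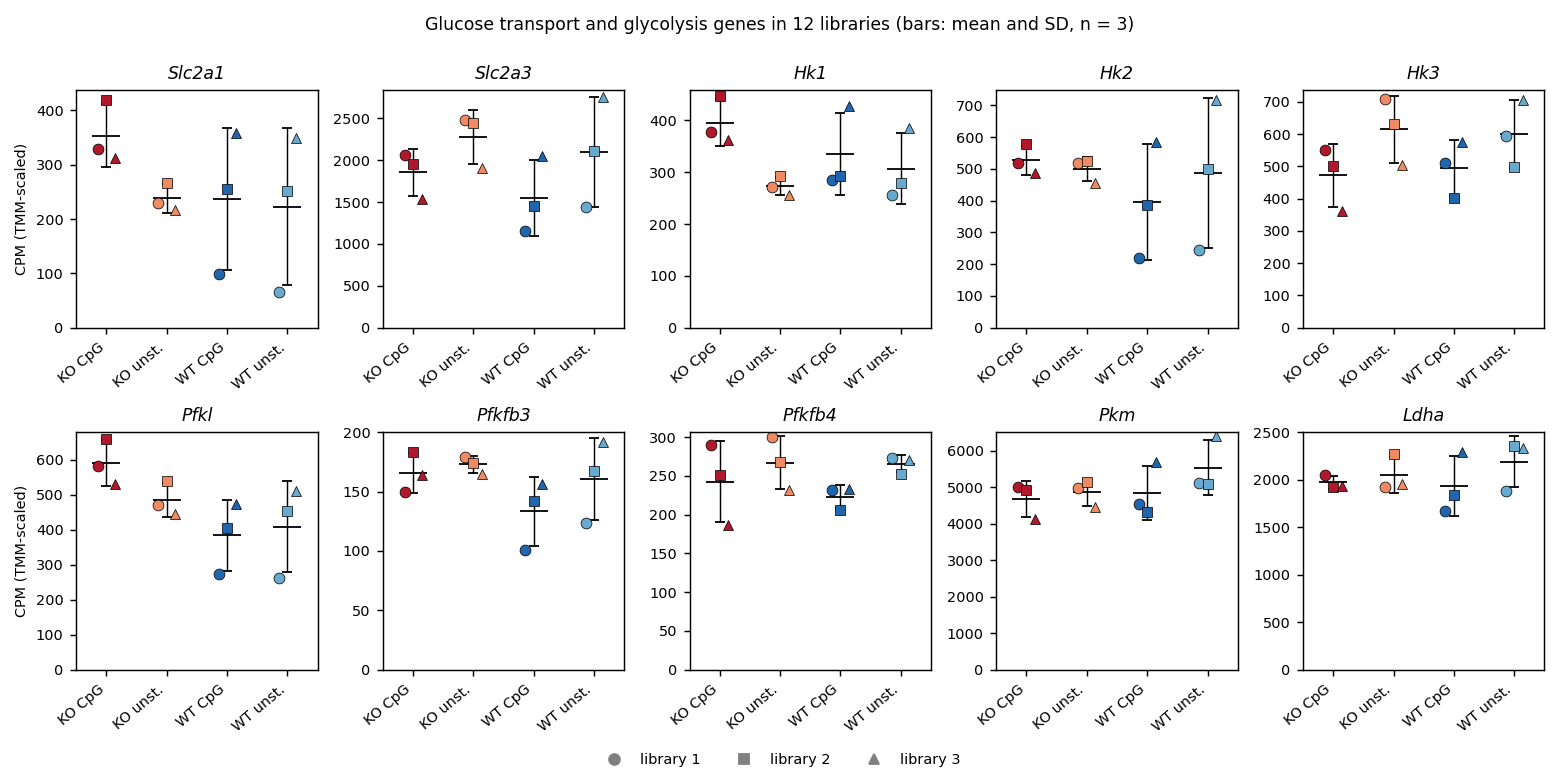
TMM-scaled CPM (y axes, from 0) of the 10 genes in each of the 12 libraries, with the mean and SD of each group (n = 3); symbol shape gives the library number. The WT libraries numbered 1 lie far below the others for Slc2a1 (98.1 and 65.5 CPM with and without CpG). For that gene the Rab27aKO libraries of a group lie closer together (313 to 420 and 217 to 267 CPM). For Pfkfb4 with CpG the Rab27aKO libraries spread more than the WT libraries (186 to 289 against 206 to 233 CPM).

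CpG in Rab27aKO neutrophils left every one of the 10 genes short of the threshold when libraries were not paired. A gene was called at an edgeR adjusted p of 0.05 or less, from the quasi-likelihood test and adjusted by Benjamini-Hochberg over all 10802 genes. The same test called 11.6% of all genes in this comparison (1257 genes). Of the 10, 1 had an unadjusted p under 0.05, and DESeq2 called 1, Hk1 in each case. The median log2 fold change of the 10 was -0.05, against -0.01 over all genes tested, with 4 estimates above 0 and 6 below. With same-numbered libraries as a block, 5 of the 10 passed, where 24.0% of all genes did. Hk1, Slc2a1 and Pfkl were higher and Slc2a3 and Hk3 lower. Those libraries correlated at 0.619, 0.085 and 0.678, not all above the limit of 0.1 for pairing, so that fit is given at the end.

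Hk1 encodes the widely expressed hexokinase that binds mitochondria. Its libraries had 378, 448 and 362 CPM in Rab27aKO neutrophils with CpG, and 271, 293 and 257 CPM without it. All 3 libraries with CpG lay above all 3 without it. The log2 fold change was 0.53 (SE 0.18, 95% interval 0.15 to 0.92, adjusted p = 0.0737 from edgeR). The adjusted p was 0.0344 with DESeq2, 0.0219 when only the 6 Rab27aKO libraries were fitted, and 0.0371 and 0.0327 when WT library 3 was left out without and with CpG. With only curated transcripts counted it was 0.37, at a log2 fold change of 0.35. On average 51.9 to 58.0% of the Hk1 TPM of a group was assigned to 1 predicted transcript, which that count leaves out.

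Slc2a1 had 328, 420 and 313 CPM in Rab27aKO neutrophils with CpG, and 230, 267 and 217 CPM without it. Again the groups did not overlap. The log2 fold change was 0.57 with an SE of 0.48 (95% interval -0.46 to 1.61, adjusted p = 0.569 from edgeR). All 4 groups share 1 dispersion per gene in this model, and the fit of the 6 Rab27aKO libraries alone gave 0.55 with an SE of 0.14 and an adjusted p of 0.036. Hk1 and Slc2a1 were the 2 of the 10 whose groups did not overlap in this comparison, and 24.2% of all genes tested did not overlap.

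The other 8 genes had overlapping groups. Hk3 had 552, 501 and 363 CPM in Rab27aKO neutrophils with CpG and 710, 631 and 505 CPM without it, a log2 fold change of -0.38 (SE 0.19, edgeR adjusted p = 0.265). Slc2a3 had 2069, 1960 and 1539 CPM with CpG and 2476, 2451 and 1907 CPM without it, a log2 fold change of -0.30 (SE 0.24, edgeR adjusted p = 0.553). For both genes library 3 was the lowest of its group. Pfkl had a log2 fold change of 0.28 (SE 0.23). The estimates of Hk2, Pfkfb3, Pfkfb4, Pkm and Ldha lay between -0.14 and 0.08.

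CpG in WT neutrophils likewise gave no call among the 10 genes without pairing, while 6.04% of all genes were called by edgeR. None of the 10 had an unadjusted p under 0.05, and DESeq2 called none. The estimates were below 0 for 8 of the 10, with a median log2 fold change of -0.22, against -0.01 over all genes tested. Pfkfb4 was the 1 gene whose groups did not overlap (231, 206 and 233 CPM with CpG, 273, 253 and 271 CPM without it), where 25.7% of all genes did not overlap.

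The WT libraries that share a number deviated from their group means together, so values with the pair as a block (replicate block) belong beside these. In the blocked fit 5 of the 10 genes fell with CpG and none rose, where 16.9% of all genes were called and 7.16% were called lower. Slc2a3 fell the most of the 10, by 0.43 on the log2 scale (SE 0.07, edgeR adjusted p = 0.00107), with 1153, 1454 and 2047 CPM with CpG against 1441, 2108 and 2751 CPM in the same-numbered unstimulated libraries. Its ratio within pairs was 0.80, 0.69 and 0.74. Hk2, the inducible hexokinase, fell by 0.28 (SE 0.07, edgeR adjusted p = 0.0144), with 218, 385 and 585 CPM with CpG against 246, 501 and 715 CPM without it. Hk3 fell by 0.28 (edgeR adjusted p = 0.0112), with 509, 403 and 574 CPM with CpG against 595, 498 and 707 CPM without it. In each of these genes the libraries of a group spread widely while every pair moved down. Pfkfb3 fell by 0.27 (edgeR adjusted p = 0.032) and Pfkfb4 by 0.25 (edgeR adjusted p = 0.0324), each also lower in 3 of 3 pairs.

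Pkm and Ldha were lower in 3 of 3 pairs too but did not pass the blocked test (log2 fold changes -0.19 and -0.18, edgeR adjusted p = 0.0766 and 0.185). In the blocked fit of the WT libraries alone Pkm fell as well (log2 fold change -0.19, edgeR adjusted p = 0.0199), which makes 6 of the 10. In all, 7 of the 10 were lower in every pair, where 27.6% of all genes tested were. Hk1 (0.12) and Slc2a1 (0.20) had estimates above 0 in the blocked fit, and Pfkl was close to 0 (-0.07). Without both WT libraries of number 1 the blocked fit called 2 of the 10, Slc2a3 and Hk2 (edgeR adjusted p = 0.00743 and 0.0445). Without number 2, and without number 3, it called 1, Slc2a3 (edgeR adjusted p = 0.0238 and 0.014). The blocked interaction called none of the 10, so a different CpG effect in the genotypes was not shown.

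**Figure D2:**
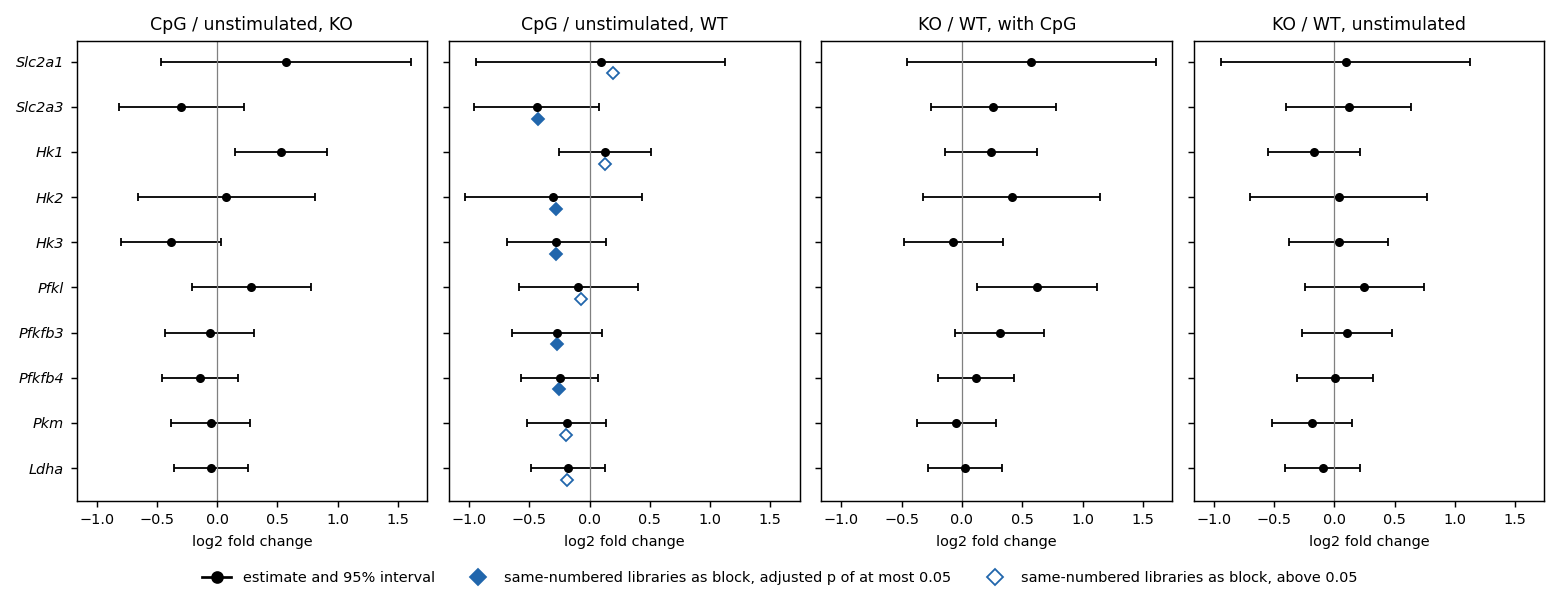
Log2 fold change (x axes) of each gene in the 4 comparisons of groups, with 95% intervals from the unblocked edgeR fit of all 12 libraries; diamonds in the WT panel are the blocked estimates, filled where the adjusted p was at most 0.05. The blocked WT estimates of Slc2a3, Hk2, Hk3, Pfkfb3 and Pfkfb4 are filled and lie between -0.43 and -0.25, and the intervals of Slc2a1 and Hk2 are the widest in every panel.

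The sum of the markers of monocytes and macrophages was higher with CpG in both genotypes. The 12 genes of that list summed to 1393 to 1555 CPM with CpG and 573 to 709 CPM without it in Rab27aKO libraries, and to 1245 to 1287 CPM with CpG and 752 to 820 CPM without it in WT libraries. Of the 12, 3 rose in Rab27aKO neutrophils (11.6% of all genes were called) and 2 in WT neutrophils (6.04%), and none was at 0. Their part in the values above was not tested.

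Between the genotypes, with CpG, edgeR called none of the 10 genes, against 3.92% of all genes. Of the 10, 1 had an unadjusted p under 0.05, and DESeq2 called none. The median log2 fold change, Rab27aKO over WT, was 0.25, against 0.00 over all genes, with 8 estimates above 0. Pfkl had 582, 659 and 530 CPM in Rab27aKO neutrophils and 273, 404 and 472 CPM in WT neutrophils with CpG, and was the 1 gene of the 10 without overlap (20.4% of all genes tested had none). Its log2 fold change was 0.62 (SE 0.23, 95% interval 0.13 to 1.12, edgeR adjusted p = 0.168), and it was 0.42 with WT library 1 with CpG left out (edgeR adjusted p = 0.519). Slc2a1 had a log2 fold change of 0.58 (SE 0.48) and was 0.20 without that same library, and the other 8 estimates lay between -0.07 and 0.41. Erythroid markers summed to 469 to 6289 CPM in Rab27aKO libraries and 4325 to 5217 CPM in WT libraries, ranges that overlap, with 1 of 9 tested lower and none at 0. Their part was not tested.

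Between the genotypes without CpG, edgeR called none of the 10 genes, against 4.75% of all genes, none had an unadjusted p under 0.05, DESeq2 called none, and no gene of the 10 had groups that did not overlap, where 25.0% of all genes did not. The estimates ran from -0.19 for Pkm to 0.25 for Pfkl. The direction of Slc2a1 rested on WT library 1: its log2 fold change was 0.10 with all libraries and -0.32 without that library. The interaction of CpG and genotype called none of the 10 and 0.0% of all genes with edgeR, none of the 10 at an unadjusted p under 0.05 (365 of all genes), and none of the 10 with DESeq2 (3 of all genes).

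Shares within gene families do not depend on library scaling and are given by TPM. Slc2a3 made up 54.5, 49.1 and 54.2% of all Slc2a transcripts in Rab27aKO neutrophils with CpG and 78.6, 77.3 and 77.5% without it. In WT neutrophils its share was 55.4, 55.9 and 60.4% with CpG and 79.6, 77.3 and 76.4% without it. The share was lower with CpG in every library of both genotypes. With CpG the genotypes did not overlap either, at means of 52.6% in Rab27aKO and 57.3% in WT libraries. Slc2a6, the transporter of lysosomal membranes known as GLUT6, was higher with CpG. It had 604, 655 and 403 CPM in Rab27aKO neutrophils with CpG and 153, 145 and 102 CPM without it, and 388, 369 and 386 CPM with CpG and 130, 105 and 140 CPM without it in WT neutrophils. It rose in both (log2 fold changes 2.06 and 1.61, SE 0.19 each, edgeR adjusted p = 7.6e-06 and 0.000109), and its share of Slc2a TPM averaged 31.1% with CpG and 8.99% without it in Rab27aKO libraries and 29.2 and 9.9% in WT libraries. The Slc2a1 share averaged 16.2 and 13.1% in Rab27aKO libraries with and without CpG, and 13.4 and 12.1% in WT libraries. It was 7.54 and 5.80% in WT library 1.

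Among the hexokinases the Hk1 share was 26.6, 30.8 and 31.6% in Rab27aKO neutrophils with CpG and 18.1, 20.4 and 21.4% without it. In WT neutrophils it was 26.9, 27.9 and 27.9% with CpG and 22.1, 22.7 and 21.9% without it. The groups did not overlap in either genotype, and with curated transcripts alone they did not overlap either, at means of 15 and 10.8% in Rab27aKO libraries and 13.3 and 11.4% in WT libraries. Without CpG the genotypes did not overlap in the Hk1 share, at means of 19.9% in Rab27aKO and 22.2% in WT libraries. With curated transcripts alone they overlapped. The Hk3 share averaged 43.0% with CpG and 54.7% without it in Rab27aKO neutrophils, with no overlap, and 50.4 and 54.0% in WT neutrophils, where the groups overlapped. The Hk2 share of WT library 1 was 14.3 and 14.8% with and without CpG, against 25.3 to 28.3% in the other 4 WT libraries.

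For phosphofructokinase, Pfkl made up 59.2, 63.3 and 58.8% of the TPM of its family in Rab27aKO neutrophils and 42.7, 56.3 and 45.1% in WT neutrophils with CpG. Without CpG it was 57.1, 58.5 and 57.6% in Rab27aKO neutrophils and 43.2, 55.1 and 46.0% in WT neutrophils. The genotypes did not overlap in either condition, and the platelet-type gene Pfkp made up nearly all the rest. With curated transcripts alone the means were 80.1 and 72.5% with CpG and 80.7 and 72.3% without it. Pfkfb3 made up 29.5 to 32.6% of the TPM of its family on average in the 4 groups, and Pfkfb4 most of the rest. Its share overlapped in each of the 4 comparisons of groups. With all transcripts 44 comparisons of shares were made, and with curated transcripts another 44, and none can pass 0.05: an exact two-sided permutation test of 3 against 3 libraries cannot go below p = 0.10, the value that each non-overlapping share reached.

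**Figure D3:**
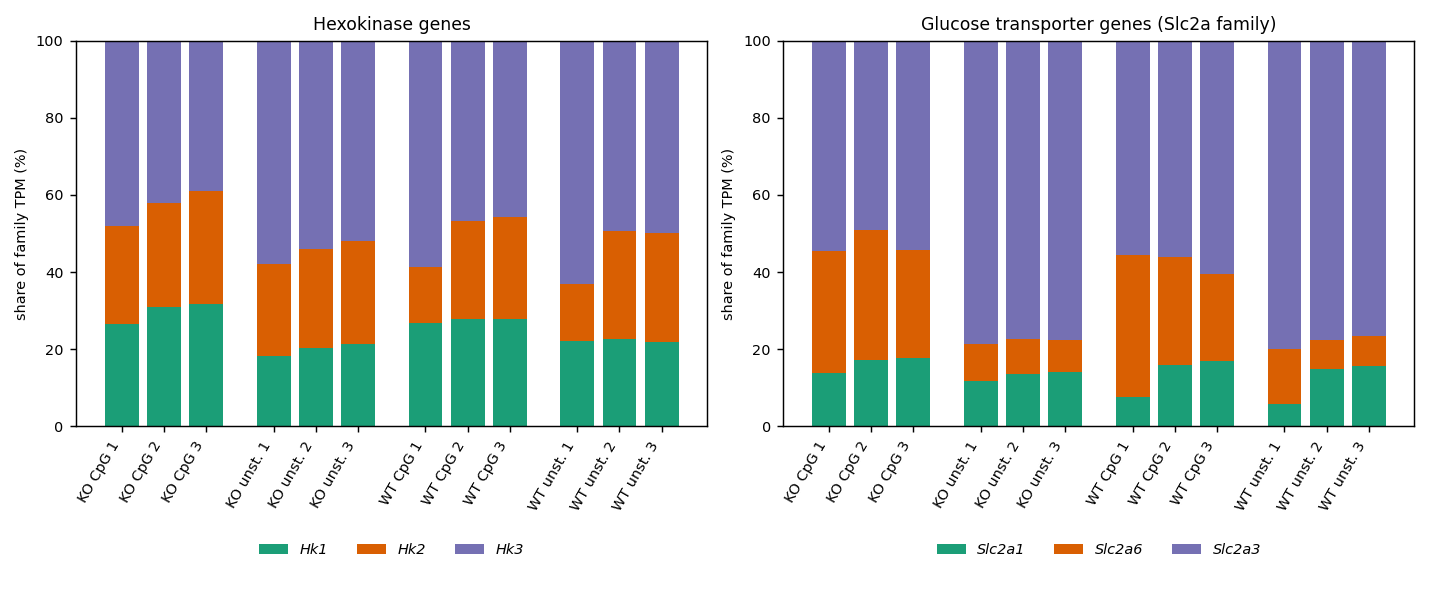
Share of the summed TPM of the hexokinase genes and of the Slc2a glucose transporter genes (y axes, percent) held by each gene in each of the 12 libraries; Slc2a and hexokinase genes with shares too small to see are not drawn. Slc2a6 takes 22.6 to 36.9% of transporter TPM in the 6 libraries with CpG and 7.65 to 14.2% in the 6 without it.

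Pkm gives 2 enzymes by a choice between a pair of exons: M2, the form of immune and dividing cells, and M1, the form of muscle and brain. The 2 exons are shown because they are where these transcripts differ. They are exon 9 of the transcripts NM_011099 (M2) and NM_001253883 (M1), read from the GENCODE transcript sequences of build GRCm38, plus strand, with the positions that differ in capitals.
Pkm M2 exon, chr9:59675568-59675734: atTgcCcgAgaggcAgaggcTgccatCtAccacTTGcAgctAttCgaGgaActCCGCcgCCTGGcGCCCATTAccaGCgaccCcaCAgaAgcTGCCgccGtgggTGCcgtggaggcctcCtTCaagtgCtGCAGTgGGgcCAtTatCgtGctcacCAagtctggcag
Pkm M1 exon, chr9:59675029-59675195: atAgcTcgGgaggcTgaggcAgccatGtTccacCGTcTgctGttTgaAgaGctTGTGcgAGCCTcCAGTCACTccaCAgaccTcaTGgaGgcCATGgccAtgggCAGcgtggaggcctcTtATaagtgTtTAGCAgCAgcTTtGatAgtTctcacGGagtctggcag
Both exons have 167 bases and differ at 64 of them (61.7% identity), with the differences spread along the length. The M2 transcript made up 93.2, 93.2 and 94.0% of Pkm TPM in Rab27aKO neutrophils with CpG and 93.8, 93.2 and 94.3% without it. In WT neutrophils it was 93.7, 92.8 and 92.8% with CpG and 93.3, 92.4 and 92.4% without it. The M1 transcript averaged 5.72, 5.24, 6.15 and 6.53% in Rab27aKO neutrophils with and without CpG and WT neutrophils with and without CpG. The M2 form led in all 12 libraries, and its 4 group means lay between 92.7 and 93.8%. These splits are RSEM's assignment of shared reads and carry its error.

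The median spread of the 10 genes was above that of all genes among WT libraries and below it among Rab27aKO libraries. The median SD among replicates, on the log2 CPM scale, was 0.14 in Rab27aKO neutrophils and 0.32 in WT neutrophils for the 10 genes. Over all genes tested it was 0.23 in Rab27aKO neutrophils and 0.19 in WT neutrophils, and over the 2043 genes of at least 100 CPM it was 0.17 and 0.13. Slc2a1 had an SD of 0.19 in Rab27aKO neutrophils and 1.14 in WT neutrophils, Hk2 0.12 and 0.75, and Pfkl 0.15 and 0.46. Pfkfb4 ran the other way with 0.26 and 0.08.

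**Figure D4:**
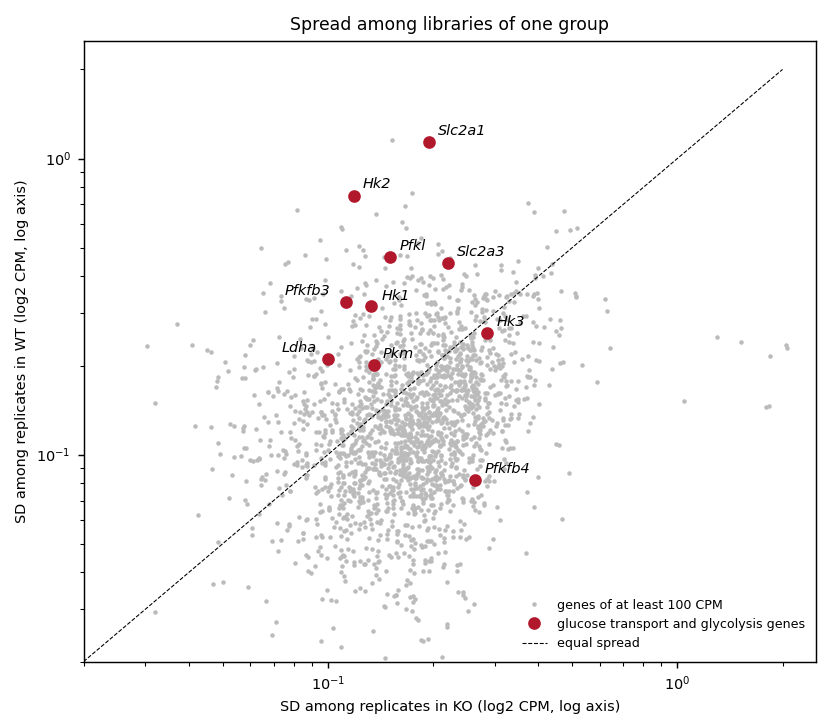
SD among replicates (log2 CPM, log axes) in Rab27aKO neutrophils (x) and WT neutrophils (y) for the 2043 genes of at least 100 CPM and the 10 glycolysis genes; the dashed line marks equal spread. Slc2a1 (0.19 and 1.14) and Hk2 (0.12 and 0.75) lie far above the line, and Hk3 (0.29 and 0.26) and Pfkfb4 (0.26 and 0.08) lie below it.

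The spread followed the library number. Slc2a1 had 98.1, 256 and 358 CPM in WT libraries 1, 2 and 3 with CpG and 65.5, 253 and 350 CPM without it. WT library 1 was the lowest in both conditions for 7 of the 10 genes, where this held for 12.98% of all genes tested, and WT library 3 was the highest in both for 8 of the 10 (22.2% of all genes). Of the 20 tested genes of a list of HIF-1 regulators and hypoxia targets, 16 were lowest in WT library 1 in both conditions and 15 highest in WT library 3. Egln3, the prolyl hydroxylase that HIF-1 induces, had 121, 312 and 529 CPM with CpG and 110, 394 and 546 CPM without it. Ndrg1 had 108, 144 and 298 CPM with CpG and 106, 168 and 309 CPM without it, and Vegfa, the vascular growth factor gene, had 78.3, 112 and 137 CPM with CpG and 76.9, 114 and 143 CPM without it. These 3 were picked as examples after their values were seen, and all show the same order of libraries in both conditions.

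Of 10 pentose phosphate genes none was lowest in WT library 1 in both conditions, and of the 19 other glycolytic enzymes tested 5 were, while 11 of them were highest in WT library 3. Of the 19 glycogen genes 8 were lowest in WT library 1 in both conditions and 9 highest in WT library 3. Erythroid markers summed to 5217, 4446 and 4325 CPM in WT libraries 1, 2 and 3 with CpG and to 5329, 5127 and 3922 CPM without it. Library 3, highest in both conditions for 8 of the 10 genes, was thus lowest for these markers, and their part was not tested. In Rab27aKO neutrophils library 3 was the lowest in both conditions for 8 of the 10 genes (27.4% of all genes), the library with the highest erythroid and progenitor sums (6289 and 6513 CPM, and 1190 and 1313 CPM, with and without CpG). Their part was not tested either.

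**Figure D5:**
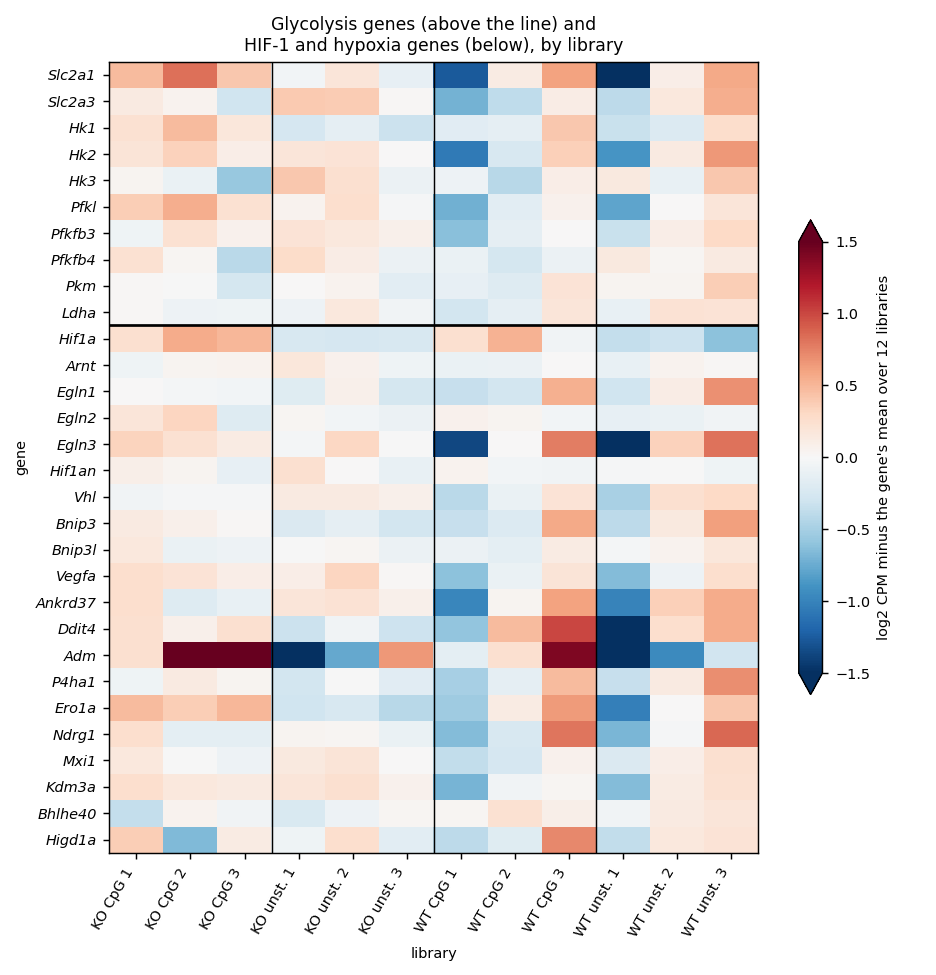
Log2 CPM of the 10 glycolysis genes (above the line) and the 20 tested HIF-1 and hypoxia genes (below) in the 12 libraries, each gene centred on its mean, with colours clipped at 1.5 in either direction. WT library 1 is blue in both conditions for most rows, including Slc2a1 and Egln3, and WT library 3 is red in both.

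The rest of the pathway is given by lists written around the 10 genes. Of the 19 other glycolytic enzymes tested, from 24 listed, none rose or fell in any of the 5 comparisons. The same held for the 18 tested genes of pyruvate and lactate fate and the 10 of the pentose phosphate pathway. Over all genes edgeR called 11.6% with CpG in Rab27aKO and 6.04% in WT neutrophils. Between genotypes it called 3.92% with CpG and 4.75% without it, and 0.0% for the interaction. The median log2 fold changes of these lists with CpG were 0.11, 0.00 and -0.06 in Rab27aKO neutrophils and -0.11, -0.05 and -0.02 in WT neutrophils. Gapdh had 5011, 4803 and 4036 CPM with CpG and 4239, 4361 and 3818 CPM without it in Rab27aKO neutrophils. It was picked as a familiar enzyme, after its values were seen, and its groups overlapped. In the blocked fit of WT neutrophils 2 of the 19 other enzymes and 1 of the 10 pentose phosphate genes fell, none rose, and the 18 genes of pyruvate and lactate fate held no call. That fit called 16.9% of all genes, and 7.16% lower.

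Of the other hexose transporters 4 of 12 listed were tested, and with CpG 1 rose and 1 fell in each genotype. Over all genes 11.6% were called with CpG in Rab27aKO neutrophils and 6.04% in WT neutrophils. Slc2a6 rose, as above. Slc37a2, a sugar-phosphate exchanger of the endoplasmic reticulum, fell, with 40.8, 33.2 and 23.2 CPM with CpG and 102, 82.9 and 77.7 CPM without it in Rab27aKO neutrophils (log2 fold change -1.44, edgeR adjusted p = 0.000143). In WT neutrophils it had 29.7, 23.2 and 25.8 CPM with CpG and 47.4, 46.1 and 37.6 CPM without it (log2 fold change -0.74, edgeR adjusted p = 0.0313). This call was lost in 5 of 12 fits that each left out 1 library: WT libraries 2 and 3 with CpG, WT libraries 1 and 2 without it and Rab27aKO library 2 without it. Without CpG, Slc37a2 was higher and Slc37a4, the glucose 6-phosphate carrier, lower in Rab27aKO than in WT neutrophils (log2 fold changes 1.00 and -0.79, edgeR adjusted p = 0.00478 and 0.0188). The Slc37a4 call was lost without Rab27aKO library 1 or 3, or WT library 3, of the unstimulated groups.

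Of the 19 glycogen genes none passed with CpG in WT neutrophils, where 6.04% of all genes did. In the blocked fit there 2 of the 19 fell, where 7.16% of all genes did. Pgm2, a phosphoglucomutase family gene, was higher in Rab27aKO than in WT neutrophils with CpG (62.5, 66.8 and 62.8 CPM against 43.5, 48.1 and 45.1 CPM) and without it (69.9, 70.7 and 66.6 CPM against 41.8, 47.7 and 48.3 CPM), with log2 fold changes of 0.49 and 0.59 (edgeR adjusted p = 0.00759 and 0.00166). Without WT library 1 with CpG the first of these was no longer called (edgeR adjusted p = 0.0713). Gbe1, the branching enzyme, was lower in Rab27aKO neutrophils without CpG (log2 fold change -0.64, edgeR adjusted p = 0.0382), a call lost in 6 of 12 fits without 1 library: each of the 3 unstimulated Rab27aKO libraries, unstimulated WT libraries 1 and 3, and WT library 1 with CpG.

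With CpG, edgeR called 11.6% of all genes in Rab27aKO neutrophils and 6.04% in WT neutrophils. Of the 20 HIF-1 and hypoxia genes 1 rose with CpG in each genotype, Hif1a, which encodes the oxygen-regulated subunit. It had 314, 388 and 375 CPM with CpG and 225, 223 and 224 CPM without it in Rab27aKO neutrophils, and 314, 381 and 254 CPM with CpG and 207, 214 and 172 CPM without it in WT neutrophils. The log2 fold change was 0.68 in both (edgeR adjusted p = 0.006 and 0.0106), and the WT call was lost without WT library 2 with CpG or 3 without it. The blocked fit of WT neutrophils called 4 of the 20 higher and 2 lower, where 16.9% of all genes were called and 7.16% were called lower. In WT neutrophils the highest libraries for Slc2a1, those numbered 3, were the lowest for Hif1a.

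Among 21 tested regulators of glucose sensing and growth, 3 rose and 1 fell with CpG in Rab27aKO neutrophils and 1 rose in WT neutrophils. The shares of all genes called in these comparisons were 11.6 and 6.04%. Myc, a transcription factor that drives glycolytic genes, rose in both at low levels. It had 2.36, 5.40 and 13.5 CPM with CpG and 0.189, 1.67 and 1.84 CPM without it in Rab27aKO neutrophils, and 6.98, 8.26 and 7.60 CPM with CpG and 1.28, 1.03 and 1.36 CPM without it in WT neutrophils (log2 fold changes 2.5 and 2.63, edgeR adjusted p = 0.0149 and 0.0176). The first call was lost without Rab27aKO library 3 with CpG, and the second without WT library 2 with CpG or any 1 of the 3 unstimulated WT libraries. Prkaa1, a catalytic subunit of the energy sensor AMPK, rose with CpG in Rab27aKO neutrophils (log2 fold change 0.54, edgeR adjusted p = 0.00304) and was higher there than in WT neutrophils with CpG (log2 fold change 0.45, edgeR adjusted p = 0.0247). The second of these was lost without Rab27aKO library 1 or WT library 1 with CpG. Sirt6, a deacetylase that represses glycolytic genes, rose in Rab27aKO neutrophils (log2 fold change 0.69, edgeR adjusted p = 0.0351), and Rptor, a subunit of the growth kinase complex mTORC1, fell (log2 fold change -0.51, edgeR adjusted p = 0.0307). The Sirt6 call was lost in 9 of 12 fits without 1 library, and held in the 3 fits that left out library 2 of unstimulated Rab27aKO neutrophils or library 1 or 3 of unstimulated WT neutrophils. The Rptor call was lost without Rab27aKO library 1 with CpG or any 1 of the 3 unstimulated Rab27aKO libraries. In the blocked fit of WT neutrophils 2 of the 21 rose and 4 fell, where 16.9% of all genes were called and 7.16% were called lower.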

How the data were processed

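PolyA RNA of the 12 libraries was sequenced at BGI Genomics, per the labels. The authors' files hold RSEM estimated counts for each RefSeq transcript, and these deposited counts entered every test. The deposited TPM gave levels between genes and shares. The deposited FPKM were left aside. The submitters' processing notes list Bowtie2 (no version), RSEM 1.2.28 and build GRCm39. The labels do not give strandedness, so reads of Slc2a1, Hk1 and Hk3 cannot be told from those of opposite-strand genes that overlap them. Of the nonzero transcript counts 80.4% were not whole numbers.

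Transcript values were added up to genes and rounded to whole counts, and 15883 of 15986 gene IDs matched a symbol in the RefSeq table of GRCm38.p6. Genes were kept by filterByExpr (smallest count 10, smallest total 15). One edgeR 4.0.16 quasi-likelihood model (R 4.3.3, TMM, 4 group means, 8 residual degrees of freedom) gave the 5 comparisons. The common dispersion of 0.0293 is a coefficient of variation of 17.1%, which with 3 libraries a group limits the precision. Alternatives were DESeq2 1.42.0, other scalings and filters, a robust fit, replicate blocks, curated transcripts only, only the libraries compared, and each library left out. Fits without both libraries of a number and blocked fits without them or of WT libraries alone were added after the data were seen.

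Residuals of same-numbered libraries with and without CpG correlated at 0.279, 0.408 and 0.437 in WT neutrophils, all above 0.1, so blocked values stand beside WT results. In Rab27aKO neutrophils not all passed 0.1, so only the genes called in the blocked fit are named beside those results. The numbers come from the labels.

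The genes and lists were chosen with earlier results of these data known. The text names the 10 genes, Rab27a and, from each other list, up to 3 called genes in each direction of a comparison, beside examples said to be picked after their values were seen. One gene that this rule names is not reported here.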

Additional observations from a re-analysis of the deposited data

How the results depend on the processing

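The count of the 10 genes called with CpG in Rab27aKO neutrophils was 0, and became 1 with DESeq2, 2 in the fit of only the libraries compared and 0 to 1 with single libraries left out. It was 1 with both WT libraries numbered 3 left out. With CpG in WT neutrophils it was 0, and became 5 in the blocked fit, 6 with the replicate block in the WT libraries alone, and 2, 1 and 1 in the blocked fit without both WT libraries of number 1, 2 and 3. The replicate number as a plain block across genotypes called 0 of the 10 in each comparison. In Rab27aKO neutrophils same-numbered libraries correlated at 0.619, 0.085 and 0.678, which did not pass the limit of 0.1 for pairing, although each library correlated best with its own number, a hint from the data and not the design. The blocked fit there called 5 of the 10 (Hk1, Slc2a1 and Pfkl higher, Slc2a3 and Hk3 lower) and 2591 of all genes (24.0%). Without both WT libraries of each number it called 5 of the 10 too. Its log2 fold changes were 0.53 for Hk1, 0.57 for Slc2a1 and -0.30 for Slc2a3 (edgeR adjusted p = 9.99e-05, 0.00135 and 0.00724). Its higher and lower calls were 5 and 0 of 20 HIF-1 and hypoxia genes and 1 and 1 of 19 other glycolytic enzymes. They were 1 and 1 of 4 hexose transporters, and 1 and 4 of 18 pyruvate and lactate genes. Of 10 pentose phosphate, 19 glycogen and 21 regulator genes, they were 1 and 0, 2 and 3, and 3 and 6.

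Of 860 alternative log2 fold changes of the 10 genes 817 kept direction and side of the threshold, 15 passed it and 28 changed sign, all of results that were not called. Curated transcripts gave 0.0252 for Pfkfb3 with CpG in Rab27aKO and -0.0568 for Hk1 with CpG in WT, and library size scaling gave -0.0399 for Ldha, Rab27aKO over WT with CpG. The cause of these was not tested. Leaving out single libraries turned the sign of 19 estimates. That of Hk2 with CpG in WT, -0.30 with all libraries, was above 0 only without unstimulated WT library 3. With CpG in Rab27aKO the ranges were -0.0229 to 0.122 for Hk2, -0.126 to 0.0261 for Ldha, -0.287 to 0.00942 for Pfkfb4 and -0.151 to 0.0217 for Pkm. With CpG in WT they were -0.0955 to 0.304 for Hk1, -0.698 to 0.067 for Hk2, -0.34 to 0.11 for Pfkl and -0.36 to 0.56 for Slc2a1. Between genotypes with CpG they were -0.20 to 0.11 for Hk3, -0.0775 to 0.184 for Ldha, -0.0295 to 0.295 for Pfkfb4 and -0.103 to 0.1 for Pkm. Between genotypes without CpG they were -0.264 to 0.0428 for Hk1, -0.27 to 0.43 for Hk2, -0.0805 to 0.193 for Hk3, -0.0363 to 0.262 for Pfkfb3, -0.0862 to 0.132 for Pfkfb4, -0.32 to 0.59 for Slc2a1 and -0.0765 to 0.371 for Slc2a3.

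Counts over all genes moved by over 1.5 times in some fits. With CpG in Rab27aKO 1257 genes became 818 without unstimulated Rab27aKO library 2. With CpG in WT 652 became 1824 in the blocked fit, 2618 in the blocked fit of WT libraries alone, 425 with curated transcripts, and 425 and 432 without unstimulated WT library 1 and WT library 2 with CpG. Between genotypes with CpG 423 became 734 with DESeq2, 227 with curated transcripts 253 with only the libraries compared, and 234 and 699 without WT library 1 and Rab27aKO library 3 with CpG. Between genotypes without CpG 513 became 782 with DESeq2 283 with curated transcripts, and 278 to 328 without unstimulated WT library 1 or 3 or Rab27aKO library 1 or 2. The interaction called 0, 13 when blocked and 3 with DESeq2.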
